A study of Mus musculus with 5 samples.

Results

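The matrix metalloproteinase (MMP) genes examined here are *Mmp2*, *Mmp9*, *Mmp14*, *Mmp23* and *Mmp27*, 5 of the 1355 genes that the authors listed as differing between *Irf8*-OE and control bone marrow-derived dendritic cells (BMDCs). They were selected on that difference itself, since the table is limited to genes with an adjusted p under 0.05 whose log2 fold change exceeded 1 in size, and all *Mmp* genes in it were taken. The differences between the groups are therefore a description and carry no p-value. The mouse family list used here has 23 genes, and the other 18 were not analysed here.

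RNA-seq covered 3 *Irf8*-OE samples and 2 control samples of mRNA from BMDCs of 8-week-old C57BL/6 mice. *Irf8*-OE mice carry an *Irf8*-Flag transgene behind a stop cassette flanked by loxP sites, under the CAG promoter at the H11 locus, and *Itgax*-Cre, which removes the cassette in CD11c-expressing cells. The controls are given as wild type by the labels and as *Irf8* CAG-LSL, which carry the transgene without Cre, by the paper. All cultures received 5 ng/ml GM-CSF and 200 ng/ml Flt3L, were replated on day 9 and were collected as non-adherent cells on days 15 to 16. The labels add TNF-α stimulation for every sample, with 20 ng/ml given as the dose that could be used. The labels number the samples within each group and do not say whether these came from separate animals or cultures, so the spread between samples may be technical.

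*Irf8* had 6021 to 7141 normalized counts in *Irf8*-OE and 2747 to 2835 in the controls. All mice are described as male, but the *Irf8*-OE samples had 10772 to 13476 normalized counts of *Xist*, the RNA of the inactive X chromosome, and 0 reads of 4 Y-linked genes, whereas the controls had at most 1.12 normalized counts of *Xist* and 484 to 1385 of each Y-linked gene. The samples thus go against the stated sex in the *Irf8*-OE group as a whole, and sex and genotype cannot be told apart for any value below. Of 8 general dendritic cell markers, among them *Itgax* and *Flt3*, 0 are in the table, so the labelled cell type was not checked here. Between 646123 and 1062127 reads per sample fell on the listed genes, and 3 reads correspond to 2.80 to 3.37 normalized counts. Normalized counts are reads divided by 1 size factor per sample.

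MMPs are zinc-dependent endopeptidases that are made as inactive proenzymes and cleave collagens and other matrix proteins, as well as chemokines and growth factors. Most are held inactive by a propeptide whose cysteine occupies the zinc ion, and tissue inhibitors of metalloproteinases (TIMPs) block the active enzymes. In dendritic cells and macrophages, MMPs are known for their part in migration through basement membranes and interstitial matrix. The gelatinases MMP2 and MMP9 carry fibronectin-type repeats that bind denatured collagen. MMP14 is anchored in the plasma membrane and, in a complex with TIMP2, activates the proenzyme of MMP2.

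*Mmp14*, *Mmp2* and *Mmp23* were higher in *Irf8*-OE BMDCs, by 2.11-fold, 3.02-fold and 2.02-fold in the group means of normalized counts, and *Mmp9* and *Mmp27* were lower, with control means 3.88 and 2.73 times those of *Irf8*-OE. In each of the 5 genes the groups did not overlap, and the genes had been chosen on this contrast. The share of all listed genes without overlap was not counted, so this says nothing particular about the *Mmp* genes. Of all listed genes, 58.1% were called higher and 41.0% lower by limma with Benjamini-Hochberg adjustment, and these shares are given beside the 3 higher and 2 lower *Mmp* genes without being read as a result. The median log2 fold change was 1.01 for the 5 genes and 1.14 for all 1355. In bulk samples, more cells of a type and more RNA per cell cannot be told apart.

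**Figure D1:**
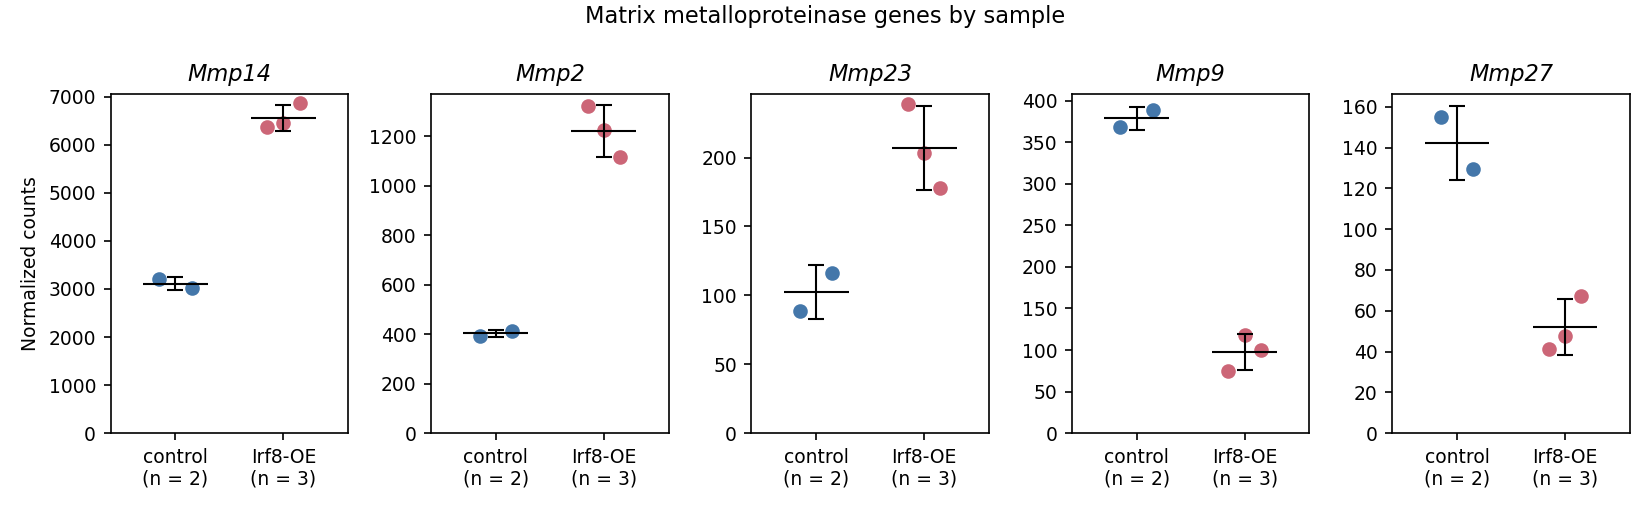
Normalized counts (vertical axes, each from 0) of the 5 genes in 2 control samples (blue) and 3 *Irf8*-OE samples (red), with points for samples, horizontal lines for means and bars for SD. *Mmp14*, *Mmp2* and *Mmp23* lie higher in every *Irf8*-OE sample than in either control, and *Mmp9* and *Mmp27* lie lower.

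*Mmp14* (ENSMUSG00000000957, chromosome 14, 54431612 to 54445364, plus strand) encodes the membrane-type enzyme and had the highest per-length level of the 5 in every sample. It had 3209 and 3011 normalized counts in the controls and 6365, 6445 and 6871 in *Irf8*-OE. The *Irf8*-OE samples were tightly grouped, and the lowest was 1.98 times the higher control. The means were 3110 ± 140 (SD, n = 2) and 6560.4 ± 272 (SD, n = 3) normalized counts, and the log2 fold change of log2(normalized counts + 1) was 1.08 (standard error 0.06), close to the limit of 1 that the table sets.

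*Mmp2* (ENSMUSG00000031740, chromosome 8, 92827291 to 92853420, plus strand) encodes gelatinase A, which fibroblasts and smooth muscle cells are known to secrete. It had 394 and 415 normalized counts in the controls and 1325, 1225 and 1115 in *Irf8*-OE. The lowest *Irf8*-OE sample was still 2.69 times the higher control. The means were 405 ± 14.2 (SD, n = 2) and 1221 ± 105 (SD, n = 3), with a log2 fold change of 1.59 (standard error 0.09), the largest increase among the 5 genes.

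*Mmp23* (ENSMUSG00000029061, chromosome 4, 155650655 to 155653384, minus strand) encodes an unusual member that is anchored by its N-terminal part and lacks the hemopexin domain of most MMPs. It had 88.8 and 116 normalized counts in the controls and 239, 204 and 178 in *Irf8*-OE. The gap between the groups was the narrowest of the 5 genes, with the lowest *Irf8*-OE sample 1.53 times the higher control. The means were 102 ± 19.3 (SD, n = 2) and 207 ± 30.6 (SD, n = 3), with a log2 fold change of 1.01 (standard error 0.18). Its log2 fold change was 0.82 without the first control and 0.90 without the first *Irf8*-OE sample, and thus below 1 in both cases. *Mmp23* and *Mmp14* lay just inside the table's limit, and genes just outside it were not analysed here.

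*Mmp9* (ENSMUSG00000017737, chromosome 2, 164940780 to 164955850, plus strand) encodes gelatinase B, which neutrophils store in granules and which macrophages and osteoclasts also make. It had 369 and 389 normalized counts in the controls and 74.8, 118 and 100.4 in *Irf8*-OE. Both controls were well above every *Irf8*-OE sample, by at least 3.13-fold. The means were 379 ± 14.2 (SD, n = 2) and 97.6 ± 21.6 (SD, n = 3), with a log2 fold change of -1.97 (standard error 0.20), the largest change of the 5 in either direction.

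*Mmp27* (ENSMUSG00000070323, chromosome 9, 7571396 to 7581885, plus strand) encodes a little-studied member of the gene cluster that also holds collagenases and stromelysins. It had 155 and 130 normalized counts in the controls and 41.2, 47.6 and 67.3 in *Irf8*-OE. It was lower in all 3 *Irf8*-OE samples, where it rested on 43 to 67 reads, the fewest of the 5 genes, against 135 to 138 reads in the controls. The means were 142 ± 18.1 (SD, n = 2) and 52.0 ± 13.6 (SD, n = 3), with a log2 fold change of -1.46 (standard error 0.24).

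The spread between *Irf8*-OE samples was larger than counting alone gives in each of the 5 genes. For *Mmp9* the SD was 21.6 normalized counts against 9.70 expected from counting, and for *Mmp2* it was 105 against 34.3. In the controls the SD of *Mmp2*, 14.2, was below the 20.5 expected from counting, and that of *Mmp14*, 140, was above the 57.0 expected. *Mmp2* and *Mmp23* were highest in the first *Irf8*-OE sample and lowest in the third, an order shared by 24.0% of the 814 listed genes with a mean of at least 50 normalized counts in *Irf8*-OE. *Mmp14* and *Mmp27* had the opposite order, as had 27.1% of those genes.

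The 5 genes lie on 5 different chromosomes, and their coordinates in the table are the same as in GENCODE vM21 (GRCm38). No other annotated gene overlaps any of them. The longest coding transcript has 662 codons in 13 exons for *Mmp2*, 730 in 13 for *Mmp9*, 582 in 10 for *Mmp14*, 391 in 8 for *Mmp23* and 551 in 9 for *Mmp27*. *Mmp27* sits in a cluster of 10 *Mmp* genes on chromosome 9, from 7272514 to 7699585, of which it is the only one in the table. Within 100 kb of *Mmp9* lie 3 other listed genes, and none lies that near to the other 4. *Slc12a5*, an ion transporter gene next to *Mmp9*, was also lower in *Irf8*-OE, with 13.1 to 18.1 against 51.7 and 60.5 normalized counts. *Cd40*, a co-stimulation receptor gene, had 423 to 521 against 215 and 218, and *Pltp*, a phospholipid transfer protein gene, had 235 to 267 against 119 and 70.1.

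Promoter sequences from RefSeq (GRCm38.p6) matched 3 of the 5 genes, *Mmp14*, *Mmp23* and *Mmp27*. They are shown because these genes differed in both directions in cells with more *Irf8*. IRF8 binds DNA with the factor PU.1 at composite elements of an ETS and an IRF half-site. Each line is the 250 bases upstream of the annotated start, 5′ to 3′ on the strand of the gene, with matches to the motifs below in capitals. The positions are chr14:54431348-54431597 (plus strand), chr4:155653385-155653634 (minus strand) and chr9:7571146-7571395 (plus strand).
*Mmp14*: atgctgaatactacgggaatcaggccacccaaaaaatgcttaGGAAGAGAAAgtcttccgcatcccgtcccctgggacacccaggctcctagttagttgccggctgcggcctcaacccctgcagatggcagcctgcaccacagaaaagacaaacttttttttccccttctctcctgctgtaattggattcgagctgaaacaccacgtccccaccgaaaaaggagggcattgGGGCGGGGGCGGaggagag
*Mmp23*: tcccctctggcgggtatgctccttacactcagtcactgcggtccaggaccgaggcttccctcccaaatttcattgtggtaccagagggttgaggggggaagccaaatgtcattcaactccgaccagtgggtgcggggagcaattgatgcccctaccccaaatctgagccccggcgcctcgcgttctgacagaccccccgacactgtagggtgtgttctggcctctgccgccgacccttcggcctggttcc
*Mmp27*: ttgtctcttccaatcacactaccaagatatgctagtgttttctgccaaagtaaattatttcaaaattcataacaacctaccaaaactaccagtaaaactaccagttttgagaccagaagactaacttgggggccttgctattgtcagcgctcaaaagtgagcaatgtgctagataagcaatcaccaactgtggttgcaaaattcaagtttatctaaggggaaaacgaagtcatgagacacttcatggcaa

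The motifs were searched on both strands in 32817 such windows. The ETS-IRF composite element, searched as GGAA followed by 2 bases of any kind and GAAA, was found in the *Mmp14* window, as GGAAGAGAAA starting 208 bases upstream of the start, and in 2.30% of all windows. The GC box GGGCGG was found 2 times in the *Mmp14* window, 19 and 13 bases upstream, and in 32.7% of all windows. The AP-1 element TGANTCA, the interferon-stimulated response element (GAAA, 2 bases of any kind, GAAA) and the TATA box TATAAA were in none of the 3 windows shown and in 6.75%, 2.97% and 12.4% of all windows. *Mmp23* has a second annotated start in the table, whose window held none of the 5 motifs. The GC content was 55.2% for *Mmp14*, 61.2% for *Mmp23* and 38.8% for *Mmp27*, against a median of 52.4%. A match of letters is a description and shows no binding.

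Levels of different genes were compared as normalized counts per kb of exon. In the controls *Mmp14* led with 522 ± 23.4 (SD, n = 2), followed by *Mmp2* with 120.0 ± 4.21, *Mmp9* with 107 ± 4.0, *Mmp27* with 64.4 ± 8.17 and *Mmp23* with 43.8 ± 8.26. No neighbours in this order overlapped, and the closest, *Mmp2* and *Mmp9*, lay at 117 to 123 and 104 to 110 per kb. In *Irf8*-OE the order was *Mmp14* with 1101 ± 45.6 (SD, n = 3), *Mmp2* with 362 ± 31.1, *Mmp23* with 88.3 ± 13.1, *Mmp9* with 27.6 ± 6.10 and *Mmp27* with 23.5 ± 6.15. The last pair overlapped, with 21.1 to 33.2 per kb for *Mmp9* and 18.6 to 30.4 for *Mmp27*, and did not differ beyond their spread.

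The summed per-length level of the 5 genes was 868 and 846 normalized counts per kb in the controls and 1603, 1587 and 1618 in *Irf8*-OE. *Mmp14* made up 60.9% of that sum in control samples and 68.7% in *Irf8*-OE. The share of *Mmp2* was 14.0% and 22.6%, and that of *Mmp9* was 12.5% and 1.72%. *Mmp27* went from 7.51% to 1.47%, and *Mmp23* had 5.12% and 5.51%, a difference smaller than the SD of 1.05 percentage points between the controls. Among all listed genes ranked by per-length level, *Mmp14* stood at place 99 of 1355 in control samples and 43 in *Irf8*-OE, and *Mmp9* at 296 and 635.

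**Figure D2:**
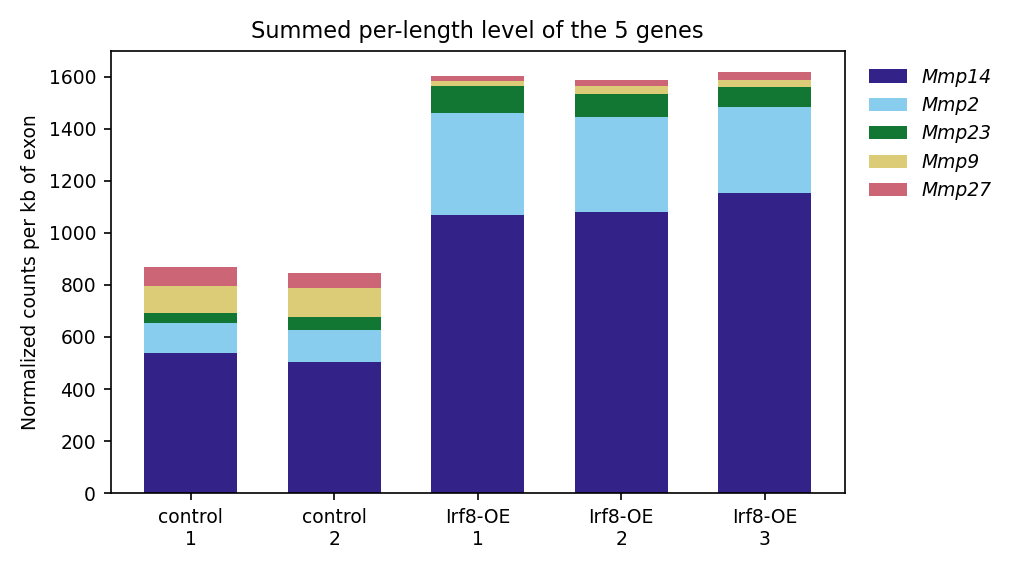
Normalized counts per kb of exon (vertical axis, from 0), stacked for the 5 genes in each of the 5 samples. The total is 846 and 868 in control samples and 1587 to 1618 in *Irf8*-OE, where *Mmp9* and *Mmp27* make up only thin bands.

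Ratios between genes within a sample do not depend on the size factors, since each sample is scaled by 1 factor. The per-length ratio of *Mmp2* to *Mmp9*, the gelatinases, was 1.12 in both controls. It was 18.6, 10.9 and 11.7 in *Irf8*-OE. The 2 gelatinases thus had nearly equal levels in the controls and were at least 10.9-fold apart in *Irf8*-OE. *Mmp2* was listed as higher and *Mmp9* as lower, so a shift of their ratio was built in by the selection. That also holds for *Mmp14* to *Mmp9* and for *Mmp23* to *Mmp27* below. The ratio of *Mmp14* to *Mmp9* was 5.17 and 4.60 in the controls and 50.6, 32.5 and 40.6 in *Irf8*-OE. *Mmp14* and *Mmp2* were both listed as higher, which favours a smaller shift of their ratio. They moved more nearly together, with a ratio of 4.60 and 4.11 in the controls and 2.72, 2.98 and 3.49 in *Irf8*-OE. Under quantile normalization, which does not scale by 1 factor, the log2 fold changes of *Mmp14* and *Mmp2* were 1.58 and 1.6, so that this difference nearly vanished. *Mmp23* was below *Mmp27* in the controls, at ratios of 0.541 and 0.847, and above it in *Irf8*-OE, at 5.47, 4.04 and 2.50.

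**Figure D3:**
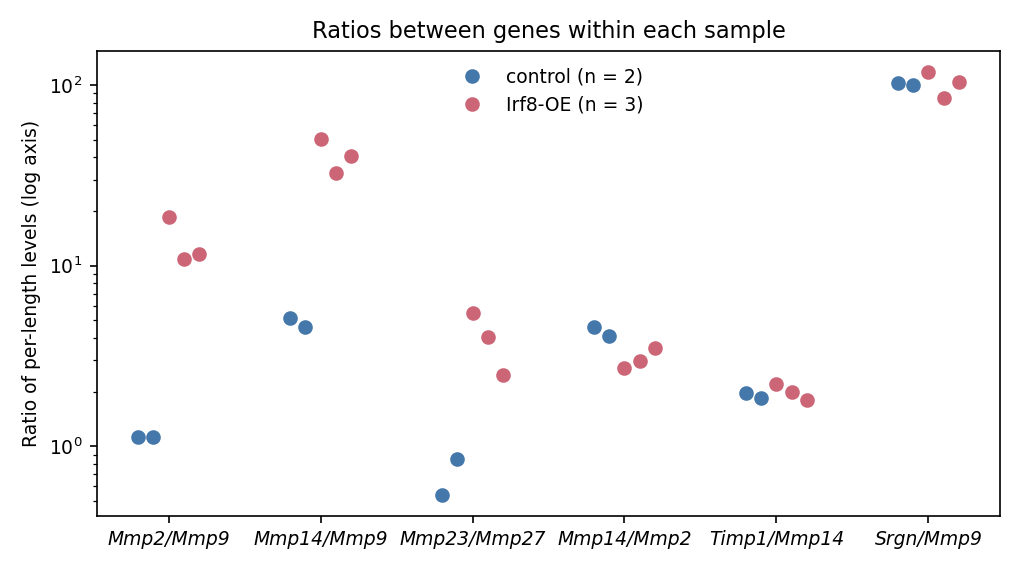
Ratio of per-length levels (vertical log axis) for 6 pairs of genes, with 1 point for each control (blue) and *Irf8*-OE (red) sample. The *Mmp2* to *Mmp9* ratio is 1.12 in both controls and 10.9 to 18.6 in *Irf8*-OE, whereas the points of *Timp1* to *Mmp14* and of *Srgn* to *Mmp9* from the 2 groups overlap. A shift is built in for pairs listed in opposite directions, such as *Mmp2* and *Mmp9*. For pairs listed in the same direction, such as *Timp1* and *Mmp14*, the selection favours a smaller shift.

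Other genes of MMP biology were taken from lists set with earlier results of these data known, and all listed genes had already been chosen by the authors, so the counts below describe the table. Of 8 inhibitor genes, 2 are in the table and both were higher. *Timp1*, which also binds the proenzyme of MMP9, had 949 and 830 normalized counts in the controls and 2102, 1924 and 1848 in *Irf8*-OE, a log2 fold change of 1.14 (standard error 0.09). *Timp1* lies on the X chromosome, and sex and genotype cannot be told apart here. *Timp3*, which binds to the matrix, had 536 and 595 against 1219, 1359 and 1515, a log2 fold change of 1.27 (standard error 0.11). The per-length ratio of *Timp1* to *Mmp14* was 1.92 ± 0.09 (SD, n = 2) in the controls and 2.01 ± 0.21 (SD, n = 3) in *Irf8*-OE, a difference within the spread. Both genes were listed as higher, which favours a stable ratio. The ratio of *Timp1* to *Mmp9* went from 9.38 ± 1.23 to 83.5 ± 25.0 over the same samples, a shift built in by their listing in opposite directions. *Timp2*, the partner of MMP14 in activating MMP2, is not in the table.

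Of 15 genes for activation of MMPs, 2 are in the table. *Cma1*, encoding a mast cell protease whose action on MMP9 was not tested here, had 2892 and 3011 normalized counts in the controls and 618, 567 and 622 in *Irf8*-OE. *Elane*, encoding neutrophil elastase, had 147 and 99.8 against 292, 241 and 288. Of 11 genes for docking and binding partners, 2 are in the table. *Srgn*, encoding serglycin, a granule proteoglycan that forms complexes with MMP9, had 23631 and 24067 normalized counts in the controls and 5497, 6208 and 6456 in *Irf8*-OE. Its log2 fold change of -1.98 (standard error 0.08) was close to that of *Mmp9*. The per-length ratio of *Srgn* to *Mmp9* was 102 ± 2.49 (SD, n = 2) in the controls and 102 ± 16.8 (SD, n = 3) in *Irf8*-OE. Both genes were listed as lower, which favours a stable ratio. *Thbs2*, encoding thrombospondin 2, which binds MMP2 and mediates its uptake, had 306 and 284 against 906, 847 and 899. Its log2 fold change of 1.58 (standard error 0.08) lay beside the 1.59 of *Mmp2*. The median was 1.83 for all listed genes called higher and -1.65 for those called lower. How many of these lay as close to *Mmp2* or *Mmp9* was not counted, and a link through binding was not tested.

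Of 30 genes for matrix substrates, 8 are in the table and all 8 were higher, with a median log2 ratio of group means of 1.88. The 4 most abundant were *Col1a2*, *Col1a1*, *Col5a2* and *Col5a1*, subunits of fibrillar collagens. *Col1a1* had 286 to 350 normalized counts in control samples and 2579 to 3118 in *Irf8*-OE, and *Col1a2* had 984 to 1033 and 3598 to 4065. *Col5a2* had 653 to 662 and 1415 to 1503, and *Col5a1* had 345 to 421 and 1150 to 1330. Of 13 *Adam* genes, 4 were in the table, all higher. *Adam23* had a log2 fold change of 1.17, *Adam19* of 1.5, *Adam22* of 1.07 and *Adam33* of 1.40. Of 14 cathepsin genes, only *Ctse*, encoding an aspartic protease, was in the table, and it was lower, with 184 to 194 against 451 and 517 normalized counts.

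Of 18 genes for transcription factors of the AP-1, NF-κB and ETS families and *Egr1* and *Runx2*, which are known to act on *Mmp* promoters, 5 are in the table and all 5 were higher. *Junb* had a log2 fold change of 1.30, *Fos* of 3.55, *Egr1* of 2.72 and *Fosb* of 4.44. *Ets1* had 82.0 and 120.0 normalized counts in control samples and 246 to 253 in *Irf8*-OE. These factors were higher together with *Mmp14* and *Mmp2* and opposite to *Mmp9*, and their part in any *Mmp* gene was not tested.

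**Figure D4:**
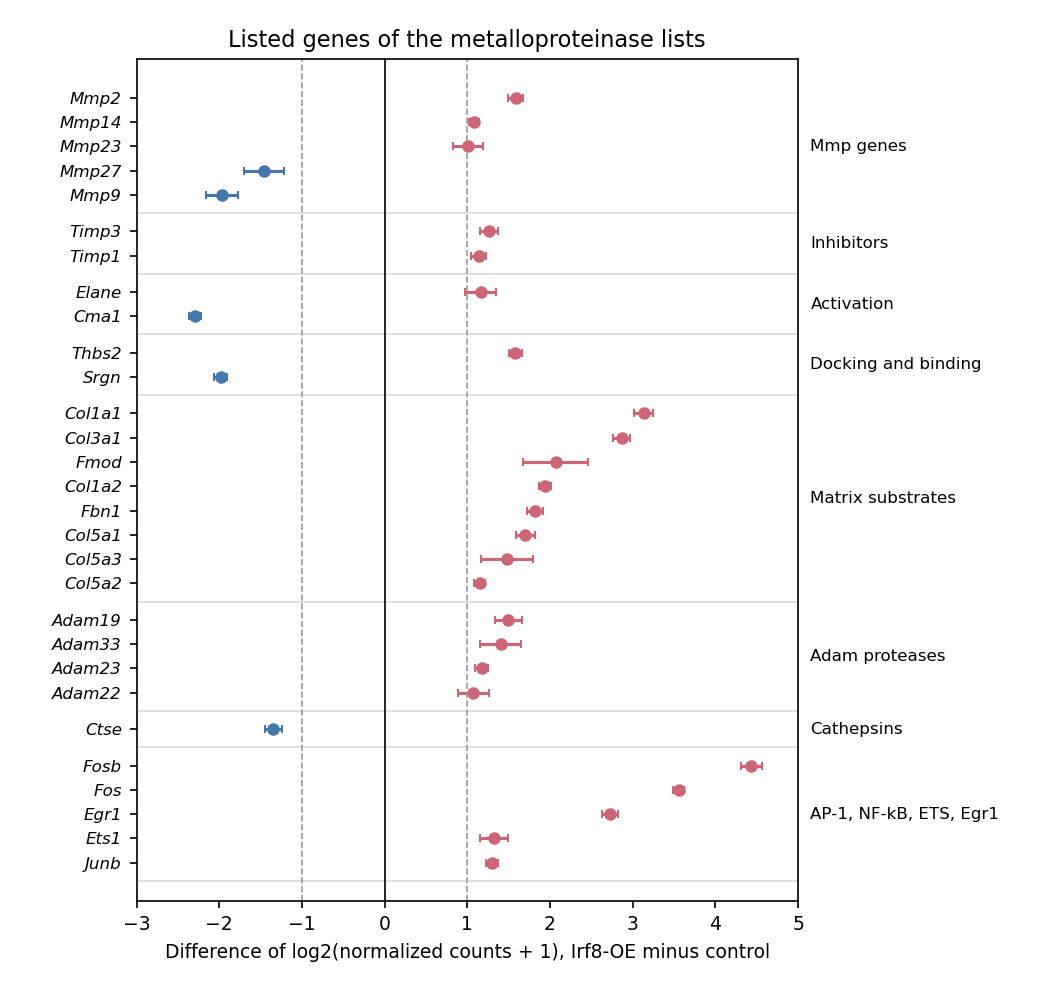
Difference of log2(normalized counts + 1), *Irf8*-OE minus control (horizontal axis), for the listed genes of each list, with points for limma estimates, bars for standard errors and dashed lines at -1 and 1. All 8 matrix substrate genes and both inhibitors lie to the right, beside *Mmp2*, *Mmp14* and *Mmp23*, and *Cma1*, *Srgn* and *Ctse* lie to the left, beside *Mmp9* and *Mmp27*.

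Markers of other cell types that could be in these cultures are also in the table. Each was listed for a difference between the same 2 groups. By that selection, every listed marker shares the direction of either the higher or the lower *Mmp* genes. Of 15 mast cell and basophil markers, 11 are in the table, 9 lower and 2 higher, and their summed level was 253382 to 257772 normalized counts in control samples and 38912 to 43320 in *Irf8*-OE, the direction of *Mmp9* and *Mmp27*. *Cpa3*, a mast cell carboxypeptidase gene, made up most of that sum, and without it the ratio of the control mean to the *Irf8*-OE mean was 4.16 instead of 6.22. *Kit* and *Fcer1a*, which define mast cells, were among the 9 and had at least 2667 and 1342 normalized counts in every sample, and *Mcpt8* and *Prss34*, known from basophils, were the 2 higher ones. Of 14 neutrophil markers, 5 are in the table. *Ly6g* had 175 and 154 normalized counts in control samples and 6.71 to 12.1 in *Irf8*-OE, like *Mmp9*, but *Mpo*, *Elane*, *Prtn3* and *Csf3r* were higher, and the summed level was 607 to 697 in control samples and 2143 to 2275 in *Irf8*-OE. *Mpo*, the myeloperoxidase gene, had 10.1 and 11.5 normalized counts in control samples and 943 to 1048 in *Irf8*-OE, and without it the sum was 1.90 times the controls in *Irf8*-OE instead of 3.39 times. Of 9 osteoclast markers only *Atp6v0d2* is in the table, with 6477 and 6721 against 2645 to 3287.

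In the direction of *Mmp2* and *Mmp14*, 9 of 10 listed stromal markers (of 16) were higher and *Lepr* was lower, with a summed level of 3847 to 3943 normalized counts in control samples and 12782 to 13861 in *Irf8*-OE. *Fbn1*, *Col1a1*, *Col1a2* and *Col3a1* are in this list and in that of matrix substrates. *Pdgfra*, *Pdgfrb* and *Thy1*, which define stromal cells, are not in the table. All 5 listed macrophage markers (of 14) were higher, summing to 4082 to 4263 in control samples and 21322 to 26066 in *Irf8*-OE. Of 14 B-lineage markers 8 are in the table, all higher, with sums of 293 to 322 and 3673 to 4157. The 3 listed of 10 cDC1 markers, *Irf8* among them, were higher, and of 6 cDC2 markers *Mgl2* was higher and *Cd209a* lower. *Irf8* is the overexpressed gene itself and cannot serve as a cDC1 marker here. The part of any of these cell types in the *Mmp* differences was not tested.

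The genes most like each *Mmp* gene were sought by Pearson correlation of log2(normalized counts + 1) over the 5 samples, among 843 other listed genes with a mean of at least 50 normalized counts. Since every listed gene separates the same 2 groups, high values were built in, and 160 genes had r above 0.99 with *Mmp2* and 153 with *Mmp14*, against 51 for *Mmp9* and 11 each for *Mmp23* and *Mmp27*. For *Mmp2* the closest were *C1qc*, a complement subunit (r = 0.9999), *Isg15*, an interferon-induced gene (r = 0.9998), and *Slc12a7* (r = 0.9997). *C1qc* had its highest value, 6626, in the first *Irf8*-OE sample and its lowest there, 4910, in the third, as *Mmp2* did. For *Mmp14* they were *Ly75*, which encodes the uptake receptor DEC-205 (r = 0.9998), *Ms4a6b* (r = 0.9998) and *Csn2* (r = 0.9996).

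For *Mmp9* the closest was *Hgf*, encoding hepatocyte growth factor (r = 0.9995), with 1380 and 1464 normalized counts in the controls and 554, 719 and 672 in *Irf8*-OE, the same order of samples as *Mmp9*. It was followed by *Atp6v0d2*, a subunit of the vacuolar proton pump, and *Stum*, with r of 0.9976 and 0.9975. *Mmp23* was most like *Nrcam*, *Saa3* and *Lbp*, of which *Saa3* and *Lbp* encode acute-phase proteins, with r from 0.994 to 0.995. *Mmp27* was most like *Pgr*, *Il6* and *Sox7*, with r from 0.996 to 0.997. *Pgr*, encoding the progesterone receptor, lies on the same chromosome as *Mmp27*, starting at 8899833, and had 607 and 544 normalized counts in the controls and 121, 140 and 207 in *Irf8*-OE.

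Other scalings changed the sizes of the log2 fold changes, and none of the settings tried turned a direction. Scaling to the listed genes alone lowered the median log2 fold change of all listed genes by up to 0.95 (DESeq2 on recovered reads) and took *Mmp14* to 0.13 and *Mmp23* to 0.06, while *Mmp2* stood at 0.64, *Mmp9* at -2.91 and *Mmp27* at -2.40. With the deposited size factors the same test gave 1.08 for *Mmp14*, 1.01 for *Mmp23*, 1.59 for *Mmp2*, -1.96 for *Mmp9* and -1.45 for *Mmp27*. Quantile normalization put *Mmp14* at 1.58 and *Mmp23* at 0.77.

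**Figure D5:**
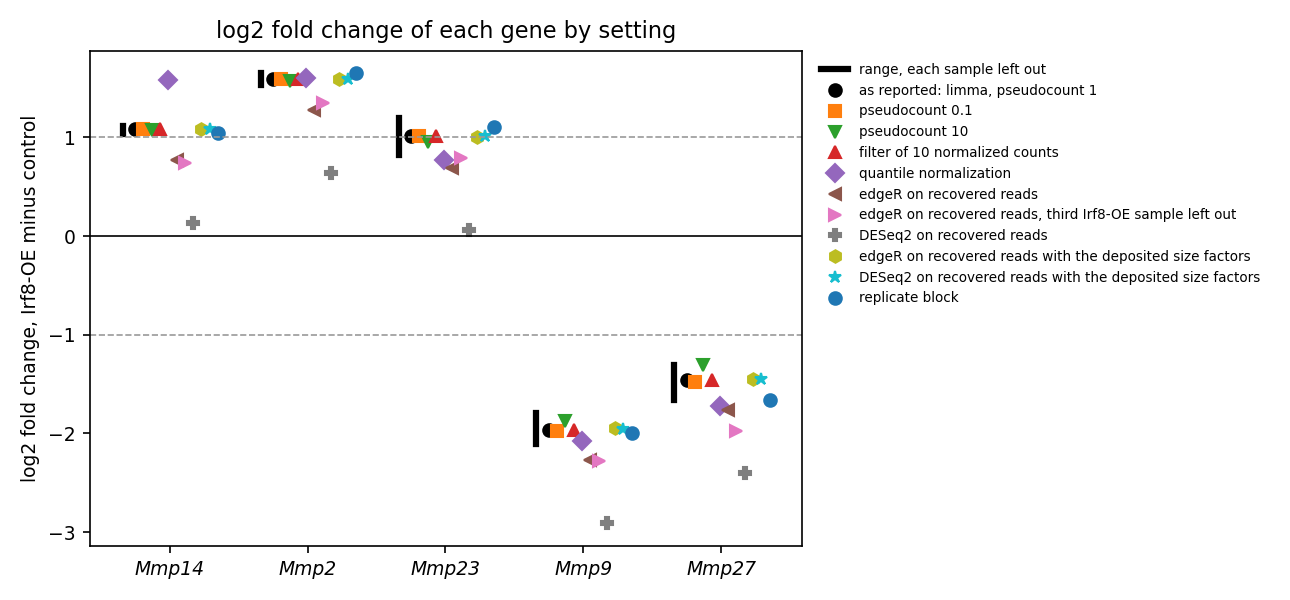
log2 fold change, *Irf8*-OE minus control (vertical axis), of each gene under each setting (symbols), with vertical bars for the range when each sample is left out and dashed lines at -1 and 1. *Mmp9* and *Mmp27* stay below -1 throughout, whereas *Mmp14* and *Mmp23* come near 0 when DESeq2 scales to the listed genes.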

How the data were processed

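Poly-A mRNA from 3 *Irf8*-OE and 2 control BMDC samples was sequenced as paired ends. The authors' processing notes name fastp, HISAT2 2.0.5, featureCounts 1.5.0-p3, DESeq2 1.20.0, edgeR 3.22.5 and mm10. The strand setting is not given in the sources used here. The deposited signal values are counts per gene divided by 1 size factor per sample, not by length. Within a tolerance of 0.1 reads, 100% were whole multiples of 1 step per sample, which gave back the reads. In the third *Irf8*-OE sample the step was too near 1 for this to be checked. Of the tests on reads, only edgeR with TMM scaling was also run without that sample. The authors' fold changes, p-values and group means were not used.

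limma 3.58.1 (R 4.3.3, trended empirical Bayes) was fitted to log2(normalized counts + 1) of all 1355 genes without covariates. A change in low genes is understated on this scale. It gives sizes and standard errors only, since the authors chose the genes by this contrast in these samples, and 3 samples against 2 cannot give a one-sided exact permutation p below 0.1. It called 1343 genes, edgeR 4.0.16 (TMM) on reads 1150 and DESeq2 1.42.0 on reads 851, or 1353 and 1354 with the deposited size factors. Per-length levels used the exonic lengths in the table. Fits were tested on simulated counts in which most genes did not differ between the groups. All listed genes were chosen for a difference, so that test does not cover the scaling of edgeR and DESeq2 here.

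The members, gene lists, motifs and tests were chosen with earlier results of these data known. Genes named are the 5 members, *Irf8*, the 3 listed genes most correlated with each member, all listed genes of the inhibitor, activation and docking lists and the 4 most abundant of each other pathway list. *Ets1*, *Xist*, the cell type markers and the neighbours of *Mmp9* were named after their values were seen. Alternatives were other pseudocounts, a filter of 10 normalized counts, quantile normalization, count tests on recovered reads, a replicate block, leaving out each sample and, added after the data were seen, marker sums without 1 gene. Same-numbered samples are not said to share a source.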

Additional observations from a re-analysis of the deposited data

How the results depend on the processing

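None of the 5 genes changed direction in any of 15 alternatives. Of 75 recomputed log2 fold changes, 60 moved by less than the SD between replicates and 15 did not. All of these 15 came from the settings that changed the scaling, namely quantile normalization and edgeR and DESeq2 scaled to the listed genes. The remaining alternatives kept the deposited scaling, so little movement was to be found there. edgeR (TMM) on recovered reads gave 1.28 for *Mmp2*, -2.27 for *Mmp9*, 0.77 for *Mmp14* and 0.69 for *Mmp23*, with 3 of the 5 past an absolute value of 1. Without the third *Irf8*-OE sample it gave 1.35 for *Mmp2*, -2.28 for *Mmp9*, 0.74 for *Mmp14* and -1.98 for *Mmp27*, again with 3. DESeq2 with its own size factors gave 0.64, -2.91, 0.13, 0.06 and -2.40 for *Mmp2*, *Mmp9*, *Mmp14*, *Mmp23* and *Mmp27*, with 2 past 1, against 5 as reported. These scale to the listed genes, all chosen for a difference, and their median log2 fold change over all listed genes was 0.84, 0.87 and 0.20, against 1.14 as reported. Quantile normalization, with a median of 0.79, gave 1.58 for *Mmp14* and 0.77 for *Mmp23*. A pseudocount of 10 gave 0.95 for *Mmp23*. edgeR and DESeq2 with the deposited size factors, added after the data were seen, kept all 5 past 1. Calls over all listed genes were 1343 in limma, 1150 in edgeR, 1161 in edgeR without the third *Irf8*-OE sample and 851 in DESeq2.

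The replicate number in the sample titles was used as a block, where the third *Irf8*-OE sample has no partner and adds nothing. The values were then 1.65 for *Mmp2*, -2.0 for *Mmp9*, 1.04 for *Mmp14*, 1.11 for *Mmp23* and -1.66 for *Mmp27*, and all listed genes gave 1319 calls against 1343. The deposited signal columns number the controls otherwise, and a block on those numbers was not run. The correlation of deviations between same-numbered samples was -0.01 and 0.04, and the numbers were not taken to pair the samples. Leaving out 1 sample at a time gave 0.82 to 1.2 for *Mmp23*. Leaving out 1 *Irf8*-OE sample at a time gave 4 to 5 of the genes past 1. All listed genes then gave 1268 to 1318 calls against 1343. *Mmp27* and *Mmp9* in *Irf8*-OE rest on 43 to 126 reads, and *Mmp23* in the controls on 79 and 121, which limits their precision.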
